A study of Arabidopsis thaliana with 42 samples.

Results

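The 3 CBF transcription factor genes and 7 cold-regulated (COR) genes were followed in Arabidopsis thaliana seedlings that were never cold-treated. The set is CBF1 (AT4G25490), CBF2 (AT4G25470), CBF3 (AT4G25480), COR15A (AT2G42540), COR15B (AT2G42530), RD29A (AT5G52310), KIN1 (AT5G15960), KIN2 (AT5G15970), COR47 (AT1G20440) and GOLS3 (AT1G09350). The genes were chosen by name as the best known members of the pathway, with earlier results of these data known. They make up 10 of the 33602 loci counted. Wild-type Col-0 was compared with the link1link2 double mutant in the Col-0 ecotype, by RNA sequencing of poly(A) RNA from seedlings. LINK1 and LINK2 are read here as LNK1 and LNK2, light-induced genes that act with the circadian clock. The labels name no allele, line number or transgene for the mutant. All plants were 9-day-old seedlings on MS medium at 22 °C; the series description gives a growth time of 2 weeks for the first experiment, and the difference could not be settled. In that first experiment plants of both genotypes were kept in continuous white light, with 3 libraries each. In the second, both genotypes were grown under a long-day cycle (16 h of light, 8 h of darkness) and harvested every 4 h from zeitgeber time (ZT) 2, which is 2 h after lights on, to ZT22, again with 3 libraries per genotype and time.

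CBF1, CBF2 and CBF3 encode AP2-domain activators that bind the CRT/DRE element, whose core is CCGAC, in the promoters of COR genes. Cold induces the CBF genes within hours, the COR genes follow, and the COR proteins help leaves to survive freezing. Without cold, both tiers are expressed at a low level that the circadian clock gates to the day, through clock proteins that bind evening elements and related sites in the CBF promoters.

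The 3 CBF genes lie in 1 tandem array on the minus strand of chromosome 4, CBF2 at chr4:13015250-13016235, CBF3 at chr4:13018010-13019400 and CBF1 at chr4:13021780-13022996 (TAIR10.1 annotation). CBF2 and CBF3 are 1774 bases apart, and CBF3 and CBF1 2379 bases. COR15B (chr2:17708593-17710433) and COR15A (chr2:17710441-17712330) are also neighbours, with 7 bases between their annotated ends, and so are KIN1 (chr5:5209717-5210826) and KIN2 (chr5:5211719-5212743), 892 bases apart. RD29A is at chr5:21240717-21243644, COR47 at chr1:7084409-7086873 and GOLS3 at chr1:3019639-3021443. The copies are close in sequence: the coding sequences of the CBF pairs were 85% to 86.7% identical, those of COR15A and COR15B 82.6%, and those of KIN1 and KIN2 95%. No 100-base stretch of any exon was shared exactly with its copy, and at most 3.09% of 50-base stretches were. How reads that fit more than 1 copy were counted is not given in the sources used here, so the split within each family is less certain than its sum. COR15B overlaps AT2G42520 on the opposite strand by 468 bases; that locus had 1458 counts in the wild type at ZT10, against 16982 for COR15B, and strand was not stated to be used. CBF3 overlaps AT4G07385, which was not analysed here, by 29 bases.

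The CRT/DRE core was searched for in the bases before each start codon. In RD29A, whose promoter is the classic CRT/DRE reporter, the 250 bases before the annotated transcript start (chr5:21240467-21240716, plus strand, RefSeq TAIR10.1) held 3 copies of CCGAC, here in capitals:
RD29A: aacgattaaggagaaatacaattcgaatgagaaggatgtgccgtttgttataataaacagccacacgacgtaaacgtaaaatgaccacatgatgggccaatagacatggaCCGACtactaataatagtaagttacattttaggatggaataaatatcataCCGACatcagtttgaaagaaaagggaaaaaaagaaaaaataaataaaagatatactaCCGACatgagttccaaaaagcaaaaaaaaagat
One core of each of the 6 other target genes is given in 30 bases 5′ to 3′ along the gene's own strand, with CCGAC, or GTCGG where the match was on the opposite strand, in capitals:
COR15A, chr2:17712215-17712244 (minus strand): acaatttcatggCCGACctgcttttttttt
COR15B, chr2:17710121-17710150 (minus strand): acaacttgatggCCGACctcttttttcttt
KIN1, chr5:5209802-5209831 (plus strand): gataaatagctaCCGACataaggcaaaact
KIN2, chr5:5211769-5211798 (plus strand): aataaaaagctaCCGACataaggcaaaaat
COR47, chr1:7085915-7085944 (minus strand): gatattcatctaCCGACttcaagaaataag
GOLS3, chr1:3019422-3019451 (plus strand): ggtcggccatggGTCGGacaaaatagatta
All 7 target genes had at least 1 CCGAC on either strand in the 1000 bases before the start codon, against 39.4% of the 27443 coding genes searched. Counts were 4 in RD29A and GOLS3, 3 in COR15A, 2 in COR15B and KIN1, and 1 in KIN2 and COR47, and 2 or more were found in 11.4% of all windows. None of the 3 CBF genes had the core in that window. The cores printed for COR15A, COR15B, KIN1, KIN2 and COR47 lie within the annotated transcript, not upstream of it. The other core of COR15B lies within the neighbouring COR15A locus.

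The CBF genes instead carry the evening element AAATATCT, which clock proteins of the CCA1 and RVE families bind. It was found on either strand 3 times in CBF1, 3 times in CBF2 and 2 times in CBF3, against at least 1 match in 15.3% of all windows. COR15A and COR15B had 1 each, KIN2 had 2 and KIN1 3, while RD29A, COR47 and GOLS3 had none. Of the matches printed below, those of CBF3, COR15A and COR15B lie within the annotated transcript. One match per CBF gene and those of the COR15 pair are shown with AAATATCT, or AGATATTT where it lay on the opposite strand, in capitals:
CBF1, chr4:13023059-13023088 (minus strand): tcatttcacagAGATATTTatgtctattat
CBF2, chr4:13016268-13016297 (minus strand): cacaaatatccAAATATCTtccggccaata
CBF3, chr4:13019174-13019203 (minus strand): ttttgcctctaAAATATCTtccgccattat
COR15A, chr2:17712120-17712149 (minus strand): taatgtgcaaaAAATATCTtactcttaata
COR15B, chr2:17710014-17710043 (minus strand): gcaatgcgcaaAAATATCTagcactcacac
The related CCA1-binding site AAAAATCT occurred once in CBF1, COR15B and RD29A, against 22.8% of all windows. The ACGTG core shared by the ABA-responsive element and the G-box was present in 10 of 10 genes, but also in 54.2% of all windows; a CACGTG hexamer counts on both strands and so gives 2 overlapping matches. No match of 1 motif overlapped a match of another in these genes, and a match describes the sequence only.

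**Figure D1:**
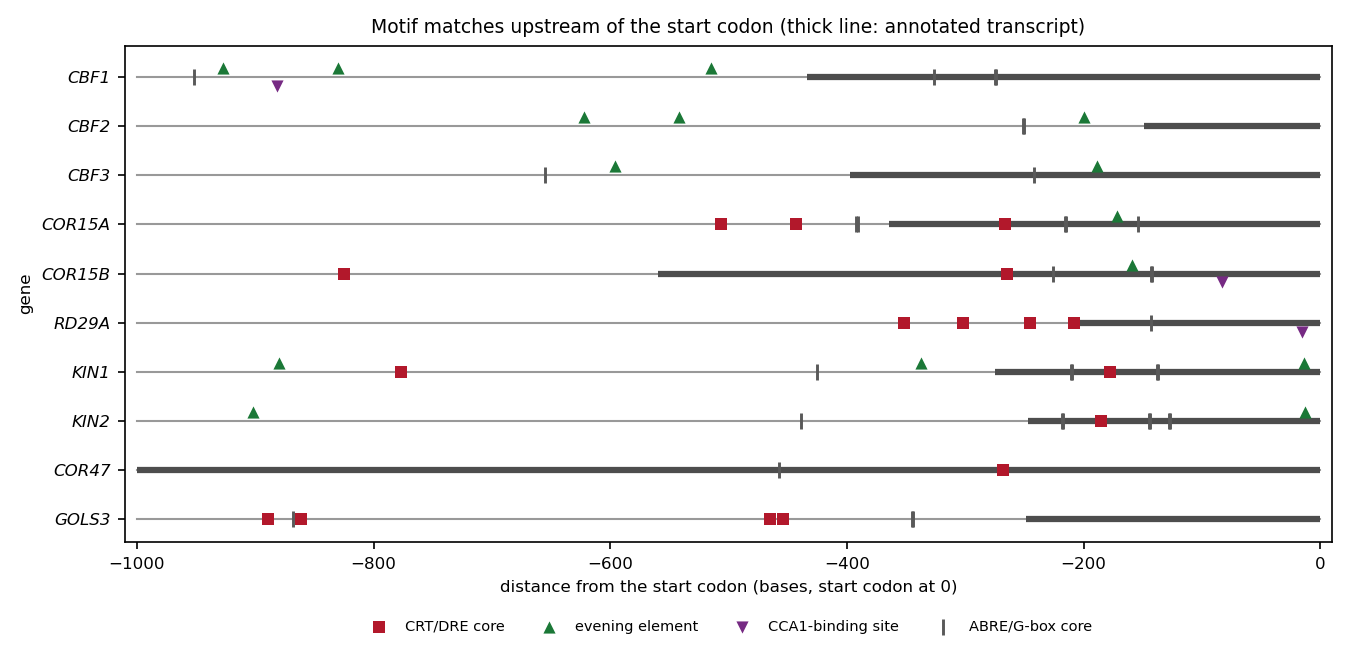
Matches of the 4 motifs in the 1000 bases before the start codon of each gene, by distance from the start codon in bases, with the annotated transcript drawn as a thick line (squares CRT/DRE core, upward triangles evening element, downward triangles CCA1-binding site, bars ABRE/G-box core). CRT/DRE cores appear in the 7 target genes and in none of the 3 CBF genes, which hold 3, 3 and 2 evening elements.

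CPM are counts of a locus scaled to the library's total over the loci tested, after adjustment of that total by edgeR's TMM factor. Library totals ran from 11448934 to 14911921 counts in continuous light and from 7259559 to 13576565 in long days. Plastid-encoded transcripts took 0.207% to 0.684% and 0.429% to 3.31% of them, and 4 long-day libraries were above 2%: wild-type ZT10 library B, and mutant ZT2 library C and ZT22 libraries A and C. LNK2 matched the labels in continuous light (140.0 ± 0.568 CPM in the wild type and 16.9 ± 0.685 in the mutant, SD, n = 3) and at ZT2 (729.5 ± 30.2 and 11.9 ± 1.29), but was higher in the mutant at ZT14 and ZT18, when the wild type was at its own trough; its part in the results was not tested. LNK1 was lower in the mutant in continuous light and from ZT2 to ZT10, and higher from ZT14 to ZT22. Both genes overlap loci on the opposite strand, by 245 bases in LNK1 and by 266 and 93 in LNK2. Tests across genes were edgeR's quasi-likelihood tests with Benjamini-Hochberg adjustment over all loci tested, 20158 loci in the continuous-light table and 20518 in the other, and calls needed an adjusted p under 0.05. In RNA from seedlings, fewer cells of a type and less RNA per cell cannot be told apart.

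In wild-type long days the whole pathway was at its highest in the afternoon. Of the 10 genes, 9 had their highest mean at ZT10, and CBF2 had its highest at ZT6. CBF3 stood at 0.257, 0.721 and 0.289 CPM in the 3 libraries at ZT2, at 4.17, 5.59 and 3.60 at ZT6, at 10.4, 12.1 and 16.2 at ZT10, and at 0.891, 0.208 and 0.126 at ZT14. No CBF3 read was counted in any wild-type library at ZT18 or ZT22, so its daily window spanned little more than ZT6 to ZT10. CBF2 led by 1 harvest, with 2.82, 3.58 and 2.70 CPM at ZT6 against 1.34, 1.81 and 1.49 at ZT10, and was the only CBF gene with a second, lower maximum at the end of the night, at 1.11, 1.08 and 1.69 at ZT22 after 0, 0.104 and 0 at ZT14. CBF1 had the lowest mean over the day, 0.406 CPM, and was counted in every library at ZT10 only, at 1.68, 1.81 and 2.23 CPM from 15, 13 and 27 counts.

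The makeup of the CBF pool therefore shifted through the wild-type day. CBF3 gave 57.8% of the 199 CBF counts at ZT6 and 79.3% of 474 at ZT10, whereas CBF2 gave 95.5% of the 44 counts at ZT22. Summed over the 3 genes the pool was 1.06 ± 0.270 CPM at ZT2, 7.72 ± 1.29 at ZT6, 16.3 ± 3.30 at ZT10 and 0.564 ± 0.381 at ZT14 (SD, n = 3). These are low levels: per kilobase of exon, CBF3 at its highest was at 9.27 ± 2.15 CPM, against 250.7 ± 26.1 for RD29A at the same time.

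The target genes other than GOLS3 rose to much higher levels than the CBF genes, but at different steepness. Wild-type GOLS3 reached 4.26 CPM at ZT10, below CBF3 at 12.9, after a 15.6-fold rise from 7 counts at ZT2. From ZT2 to ZT10 the wild-type mean went up 93.6-fold for COR15B, 11-fold for COR15A, 8.76-fold for RD29A, 6.15-fold for KIN2, 4.98-fold for KIN1 and 2.85-fold for COR47. COR15A and COR15B encode chloroplast stroma proteins that protect membranes; COR15A read 49, 53.8 and 71.7 CPM at ZT2 and 561, 517 and 838 at ZT10, and COR15B 4.36, 6.73 and 7.66 at ZT2 and 552, 513 and 690.0 at ZT10. The 2 genes thus began the day far apart and met at ZT10. Levels lasted into the evening to differing degrees: at ZT14 COR15A was still at 41.2% of its ZT10 mean, COR47 at 41.4%, KIN1 at 36.8%, KIN2 at 36.2% and COR15B at 32.1%, but RD29A at 8.87% and CBF3 at 3.17%. By ZT18, in the dark, COR15A had dropped 16.7-fold, COR15B 15.7-fold and KIN2 10.0-fold from ZT14. In the wild type 10 of 10 genes passed the edgeR test for time of day. As 79.9% of all loci passed it, this count does not set these genes apart. By that test the adjusted p ran from 6.37e-22 (KIN2) to 5.04e-09 (CBF1). CBF1 and GOLS3 had passed the filter on low counts only through wild-type libraries. Without them 8 of 8 passed that test, CBF3 included.

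Ordered per kilobase, the wild-type levels at ZT10 ran from KIN2 at 673.5 ± 92.1 CPM per kilobase through COR15A at 403.2 ± 109.7, COR15B at 369.2 ± 58.8 and COR47 at 342.2 ± 13 to RD29A and then KIN1 at 120.2 ± 29.4. The libraries of COR15A, COR15B and COR47 overlapped, so those 3 did not differ beyond their spread. Below them came CBF3, GOLS3 at 2.75 ± 1.16, CBF2 at 1.57 ± 0.241 and CBF1 at 1.56 ± 0.239, and the last 3 overlapped in turn.

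**Figure D2:**
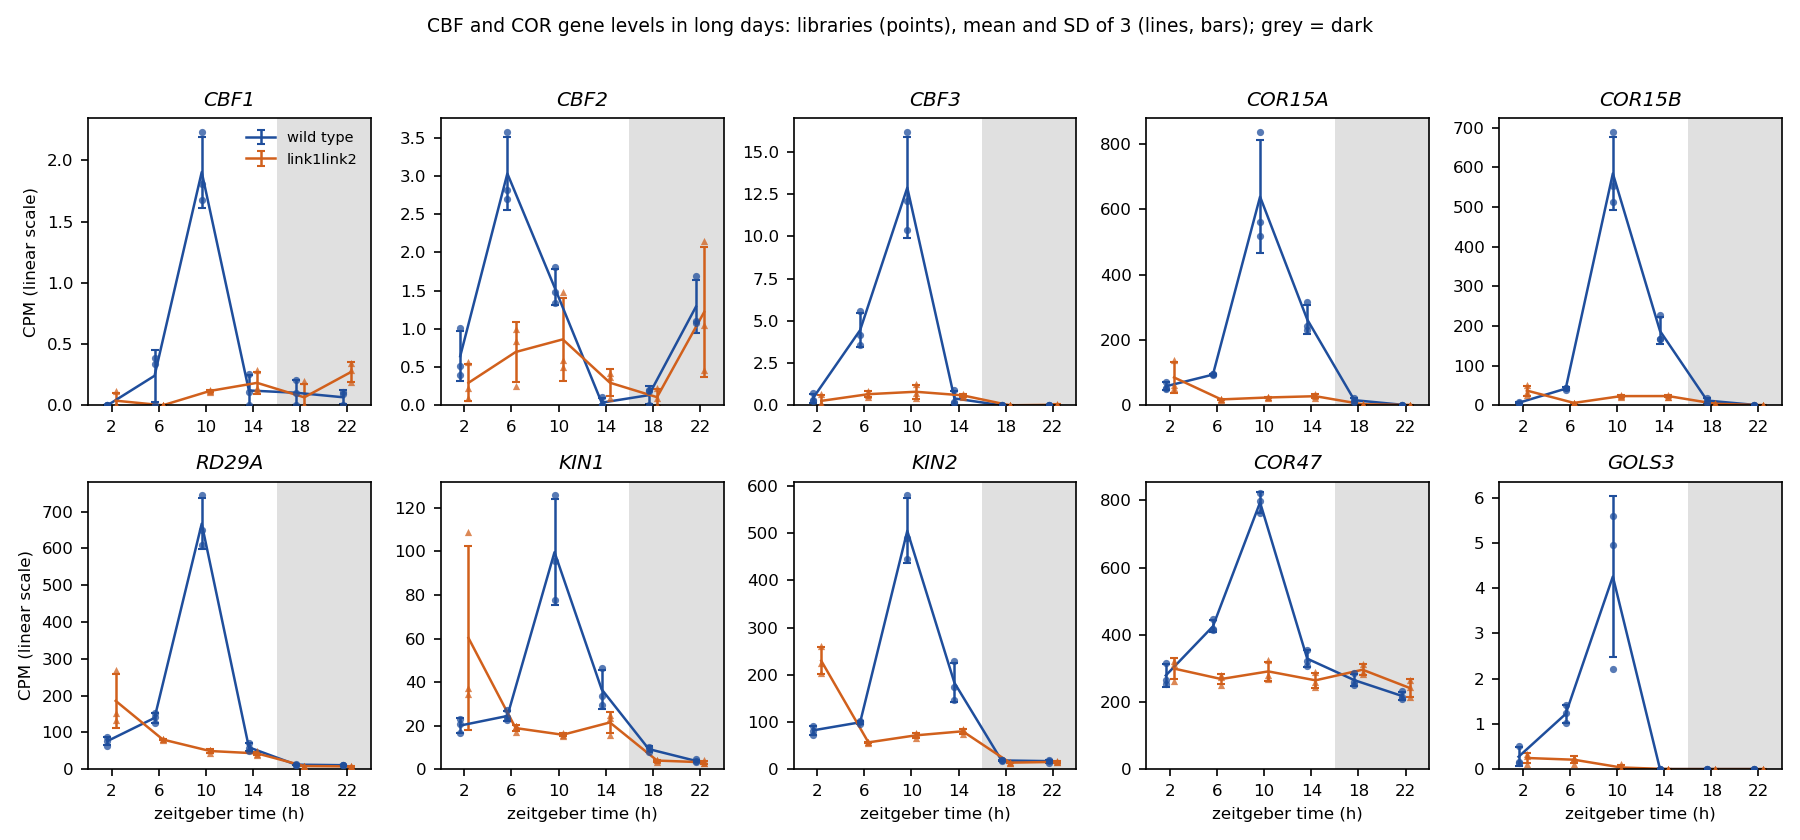
CPM on a linear scale against zeitgeber time (h) for each gene in long days; points are libraries (circles wild type, triangles link1link2), lines and bars are mean and SD of 3, and grey marks the dark. The wild type peaks at ZT10 in 9 of 10 panels, and the mutant stays low there.

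At ZT10, when the wild type was highest, most of the set was low in link1link2. Of the 10 genes 9 were called lower in the mutant, where 10.7% of all loci were lower, and none was called higher, where 11.4% of all loci were; none was higher at an unadjusted p under 0.05 or by DESeq2 either. In those 9 genes every wild-type library lay above every mutant library, as in 18.9% of all loci. CBF1 and GOLS3 had passed the filter on low counts only through wild-type libraries, and CBF3 through 6 wild-type libraries and 1 mutant library. The calls of these genes come with that choice. Without CBF1 and GOLS3, 7 of 8 were lower, CBF3 among them. The median of the 10 log2 fold changes was -3.83, and the median over all loci tested was -0.0044.

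Of the regulators, CBF3 read 0.716, 1.27 and 0.424 CPM in the mutant at ZT10, where the wild type read 10.4 or more. Its log2 fold change was -4.03 ± 0.36 (SE, adjusted p = 2.74e-11, edgeR). CBF1 was down to 1 count in each mutant library, 3 counts against 55, a ratio of 16.7 of wild type to mutant with a 95% counting interval of 5.42 to 83.4 (log2 fold change -3.90 ± 0.67, adjusted p = 1.86e-05, edgeR). CBF2 was the exception: the mutant libraries read 0.596, 0.507 and 1.48 CPM against 1.34, 1.81 and 1.49, so they overlapped, and the difference of -0.77 ± 0.48 on the log2 scale did not pass (adjusted p = 0.279, edgeR). The remaining CBF pool of the mutant, 46 counts, was 50% CBF2 and 43.5% CBF3. The 3 genes were also summed before the test, so that a split of shared reads among the copies does not matter. Shared reads that were dropped or counted more than once would still affect the sum. The pool was 1.78 ± 0.309 CPM in the mutant and the log2 fold change -3.17 ± 0.28 (adjusted p = 5.03e-12, edgeR).

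Among the 6 well-counted targets, called COR genes from here on, the drop of the mean at ZT10 ranged from 26.6-fold in COR15A to 2.73-fold in COR47. COR15A read 21.9, 25.5 and 24.5 CPM and COR15B 24.8, 24.6 and 20.2 in the mutant, where no wild-type library was below 512.6. Their log2 fold changes were -4.74 ± 0.31 (adjusted p = 4.44e-12, edgeR) and -4.66 ± 0.23 (adjusted p = 9.33e-15, edgeR). RD29A, a hydrophilic protein gene induced by cold, drought and abscisic acid, read 649.9, 608 and 744 CPM in the wild type and 42.6, 52 and 53 in the mutant, a log2 difference of -3.76 ± 0.20 (adjusted p = 3.91e-14, edgeR).

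KIN1 and KIN2 encode small hydrophilic cold-induced proteins. KIN1 read 126, 77.6 and 95.6 CPM in the wild type and 15.2, 16.6 and 15.6 in the mutant, and KIN2 445, 489.8 and 581 against 75.8, 73.8 and 64.9. They fell by 2.66 ± 0.31 and 2.82 ± 0.13 on the log2 scale (adjusted p = 2.68e-07 and 1.21e-15, edgeR). COR47, a dehydrin, read 799, 761 and 821 CPM in the wild type and 269, 323 and 280 in the mutant and fell by 1.45 ± 0.09 (adjusted p = 2.49e-16, edgeR), the smallest drop among the 9 called genes. GOLS3, a galactinol synthase of raffinose synthesis, was low throughout: 50, 16 and 60 counts in the wild-type libraries faced 0, 0 and 1 in the mutant, a wild-type to mutant ratio of 115 (counting interval 20.2 to 4564).

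At ZT6 most of the set was lower in the mutant as well. Of the 10 genes 8 were lower in the mutant against 9.98% of all loci. None was higher, by DESeq2 or at an unadjusted p under 0.05 either, against 10.1%. In 9 genes every wild-type library lay above every mutant library, as in 17.2% of all loci. Without CBF1 and GOLS3, which had passed the filter only through wild-type libraries, 7 of 8 were called lower. CBF3 is among those 7, and it had passed the filter through 6 wild-type libraries and 1 mutant library. CBF3 was at 0.505, 0.871 and 0.601 CPM, below every wild-type library (-2.74 ± 0.43, adjusted p = 7.63e-06, edgeR). CBF2, at its wild-type maximum, was at 0.252, 0.996 and 0.842 (-2.10 ± 0.46, adjusted p = 0.00062, edgeR). CBF1, with 6 counts in the wild type and 0 in the mutant, was not called (adjusted p = 0.0698).

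Among the targets at ZT6, COR15B was at 4.92, 6.97 and 6.13 CPM in the mutant and at 37.8, 44.3 and 44 in the wild type (-2.80 ± 0.31, adjusted p = 1.24e-07, edgeR). COR15A was at 19.7, 19.0 and 15.4 against 95.3, 95.2 and 91.3 (-2.38 ± 0.32, adjusted p = 3.9e-06, edgeR). These 2 had the steepest drops of the 6 well-counted targets. RD29A (-0.79 ± 0.18), KIN2 (-0.81 ± 0.14) and COR47 (-0.66 ± 0.09) fell by less than 1 log2 unit, and KIN1 was not called (-0.37 ± 0.35, adjusted p = 0.535, edgeR), though KIN1 and KIN2 summed were lower (-0.71 ± 0.15, adjusted p = 0.0011, edgeR). GOLS3 was lower, from 5 counts against 31, a wild-type to mutant ratio of 5.88 (counting interval 2.27 to 19.4).

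**Figure D3:**
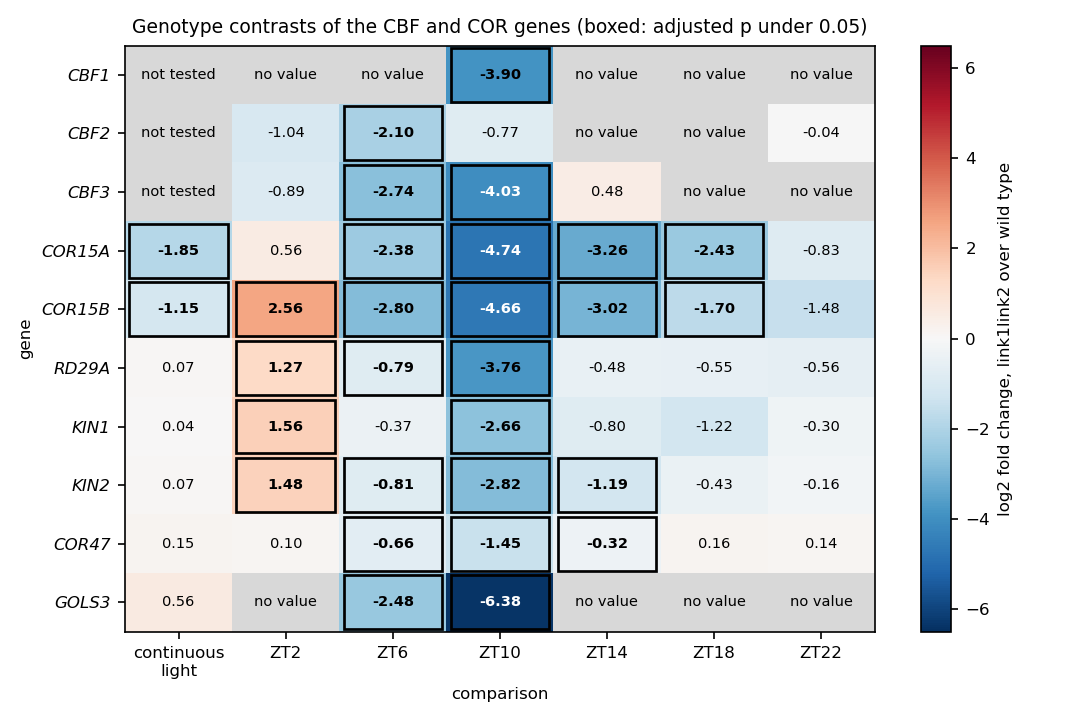
Log2 fold change of link1link2 over wild type for each gene (rows) in continuous light and at each long-day harvest (columns); boxed cells have an adjusted p under 0.05, and cells read "no value" where a genotype had no count or both had fewer than 10 counts. Blue cells gather at ZT6 and ZT10, red boxed cells stand at ZT2 alone, and ZT22 holds no boxed cell.

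In the morning the direction was the opposite for part of the set. At ZT2, 4 of the 10 genes were higher in the mutant against 8.53% of all loci, and none was lower, by DESeq2 or at an unadjusted p under 0.05 either, against 7.58%; in these 4 genes every mutant library lay above every wild-type library, as in 16.4% of all loci. COR15B read 33.7, 26.6 and 51.2 CPM against 4.36, 6.73 and 7.66 (2.56 ± 0.30, adjusted p = 8.05e-07, edgeR). KIN2 read 204, 225 and 260.2 against 72.8, 92.3 and 81.2 (1.48 ± 0.13, adjusted p = 4.15e-09, edgeR). RD29A read 133, 154 and 270.4 against 64, 88.1 and 76.5 (1.27 ± 0.18, adjusted p = 1.63e-05, edgeR). KIN1 read 34.7, 37.3 and 109 against 16.4, 23.1 and 20.5 (1.56 ± 0.31, adjusted p = 0.000748, edgeR).

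COR15A, the neighbour of COR15B, was not called at ZT2: at 62.6, 54 and 139 CPM the mutant overlapped the wild type (0.56 ± 0.28, adjusted p = 0.197, edgeR), and the pair summed was higher by 0.91 ± 0.27 (adjusted p = 0.0211, edgeR). COR47 at 262, 313 and 323 CPM also overlapped it (0.10 ± 0.09, adjusted p = 0.468). The CBF pool of the mutant was no higher at that time, at 0.594 ± 0.583 CPM against 1.06 ± 0.270 (-0.91 ± 0.54, adjusted p = 0.278, edgeR). Singly, CBF2 (-1.04 ± 0.72) and CBF3 (-0.89 ± 0.78) were not called, CBF1 had 1 count in the mutant and 0 in the wild type, and GOLS3 had 7 counts in each. Mutant ZT2 library C, whose plastid share was 2.17%, was the highest of the 3 for 6 of 6 COR genes. Without it the 4 calls held, COR15B at 2.25, KIN2 at 1.36 and RD29A at 0.88, but KIN1 went from 1.56 to 0.80 (adjusted p = 0.00697, edgeR) and COR15A to -0.0049. With ZT2 fitted alone, RD29A and KIN1 lost their calls (adjusted p = 0.111 and 0.233, edgeR).

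At the harvest after the wild-type peak the COR15 genes, KIN2 and COR47 were called and no CBF gene was. At ZT14, 4 of 10 genes were lower in the mutant against 6.98% of all loci, and none was higher, by DESeq2 or at an unadjusted p under 0.05 either, against 7.72%; in 6 genes every wild-type library lay above every mutant library, as in 12.7% of all loci. COR15A read 315, 231 and 242 CPM in the wild type and 35.0, 21.5 and 27.2 in the mutant (-3.26 ± 0.30, adjusted p = 1.11e-08, edgeR), and COR15B 227, 167 and 168 against 26.1, 21.7 and 22.1 (-3.02 ± 0.22, adjusted p = 1.83e-10, edgeR). KIN2 (-1.19 ± 0.13) and COR47 (-0.32 ± 0.09) were lower too, but the COR47 call was lost without wild-type ZT14 library B (adjusted p = 0.0702, edgeR) or mutant ZT14 library A (adjusted p = 0.0729, edgeR). CBF3, at 0.694, 0.572 and 0.499 CPM in the mutant, overlapped the wild type (0.48 ± 0.69, adjusted p = 0.731, edgeR), and RD29A (-0.48 ± 0.20, adjusted p = 0.119, edgeR) and KIN1 (-0.80 ± 0.33, adjusted p = 0.108, edgeR) were not called; without mutant ZT2 library C, which enters the shared estimate of spread, both were (adjusted p = 0.0131 and 0.00284, edgeR). CBF1 had 3 counts in the wild type and 5 in the mutant, CBF2 1 and 7, and no GOLS3 read was counted in either genotype.

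In the dark fewer genes were called. At ZT18, 2 of 10 genes were lower in the mutant against 9.59% of all loci, and none was higher, by DESeq2 or at an unadjusted p under 0.05 either, against 10.6% of all loci; in 5 genes every wild-type library lay above every mutant library, as in 18% of all loci. Both called genes were of the COR15 pair: COR15A read 9.92, 13.7 and 23.6 CPM in the wild type and 3.76, 1.27 and 3.98 in the mutant (-2.43 ± 0.52, adjusted p = 0.00129, edgeR), and COR15B changed by -1.70 ± 0.39 (adjusted p = 0.00223, edgeR). RD29A (-0.55 ± 0.30), KIN1 (-1.22 ± 0.53), KIN2 (-0.43 ± 0.19) and COR47 (0.16 ± 0.09) were not called. With ZT18 fitted alone the calls changed places: the COR15 pair kept its log2 fold changes, -2.43 and -1.70, but did not pass (adjusted p = 0.0508 and 0.102, edgeR), while RD29A (adjusted p = 0.0025), KIN1 (5.24e-06) and KIN2 (0.00497) were lower. With KIN1 and KIN2 summed, that pair was lower too (-0.65 ± 0.19, adjusted p = 0.0161, edgeR). CBF1 had 3 counts in the wild type and 2 in the mutant, CBF2 4 and 3, and CBF3 and GOLS3 none in either.

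At ZT22 no gene of the set was called in either direction by edgeR, nor at an unadjusted p under 0.05, although 16.6% of all loci were higher and 14.1% lower in the mutant; DESeq2 called 1, COR15B, lower (-1.50, adjusted p = 0.0295), and with ZT22 fitted alone RD29A was lower (-0.58, adjusted p = 0.00595, edgeR). By the fit over all times COR15A changed by -0.83 ± 0.98 and COR15B by -1.48 ± 1.02 on the log2 scale, RD29A by -0.56 ± 0.31, KIN1 by -0.30 ± 0.65, KIN2 by -0.16 ± 0.18 and COR47 by 0.14 ± 0.09. CBF2 was at its mutant maximum there, at 0.463, 1.05 and 2.14 CPM, and overlapped the wild type (-0.04 ± 0.44). Its means at that time were 1.22 ± 0.853 CPM in the mutant and 1.29 ± 0.343 in the wild type. CBF1 had 8 counts in the mutant and 2 in the wild type, CBF3 1 and 0, and GOLS3 none in either.

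Over the day these differences left the mutant with another daily shape. The genotype difference depended on the time of day in 10 of 10 genes, where 41.9% of all loci passed the same edgeR test. Without CBF1 and GOLS3 it did so in 8 of 8, CBF3 included. In the mutant the means of the 6 COR genes were highest at ZT2 rather than ZT10, though COR47 libraries overlapped between these times. GOLS3 had only 7 counts in the mutant at ZT2, 5 at ZT6 and 1 at ZT10. Its ZT2 and ZT6 libraries overlapped, so its highest harvest was not settled. From ZT10 to ZT2 the mutant means stood 3.82-fold higher for KIN1, 3.77-fold for RD29A, 3.56-fold for COR15A, 3.21-fold for KIN2 and 1.6-fold for COR15B, whereas COR47 was level at 1.03-fold. Without mutant ZT2 library C these values were 2.28-fold for KIN1, 2.91-fold for RD29A, 2.43-fold for COR15A, 3.00-fold for KIN2, 1.3-fold for COR15B and 0.988-fold for COR47, so that KIN2 came first. In the mutant 9 of 10 genes passed the test for time of day, all but CBF1 (adjusted p = 0.0865, edgeR). As 83.8% of all loci passed it, this count does not set these genes apart. A 24 h cosine differed between genotypes in 9 of 10 (15.3% of all loci), all but CBF2 (adjusted p = 0.315, edgeR). Without CBF1 and GOLS3 these counts were 8 of 8 and 7 of 8, CBF3 included in both. The cosine call of CBF1 was lost without the 4 libraries over 2% plastid counts (adjusted p = 0.0542, edgeR), and that of KIN1 without mutant ZT2 library C (adjusted p = 0.0626, edgeR).

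COR47 varied least in the mutant: its mutant libraries lay between 215 and 323 CPM at every harvest, and the highest mean was 1.24-fold the lowest, against 3.64-fold in the wild type. Its call for time of day in the mutant (adjusted p = 0.00863, edgeR) was lost without the 4 libraries over 2% plastid counts (adjusted p = 0.116, edgeR), and without mutant ZT22 library C alone (adjusted p = 0.059, edgeR). Averaged over the 6 times on the log2 scale, 6 of 7 genes with a defined value were lower in the mutant (15.7% of all loci) and none was higher, by DESeq2 or at an unadjusted p under 0.05 either (18.2% of all loci). These ran from COR15A at -2.18 ± 0.24 and COR15B at -1.85 ± 0.22 to RD29A at -0.81 ± 0.10, KIN2 at -0.66 ± 0.06, KIN1 at -0.63 ± 0.18 and COR47 at -0.34 ± 0.03. CBF2 was at -0.28 ± 0.52 and not called, and CBF1, CBF3 and GOLS3 had times without a count. Leaving ZT10 out of the mean CPM separates the targets: the mutant level was then 1.09-fold that of the wild type for RD29A, 1.14-fold for KIN1, 0.990-fold for KIN2 and 0.903-fold for COR47, but 0.313-fold for COR15A and 0.283-fold for COR15B. Without mutant ZT2 library C, RD29A and KIN1 fell on the other side of 1, at 0.948-fold and 0.886-fold, and the COR15 genes were at 0.250-fold and 0.255-fold.

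**Figure D4:**
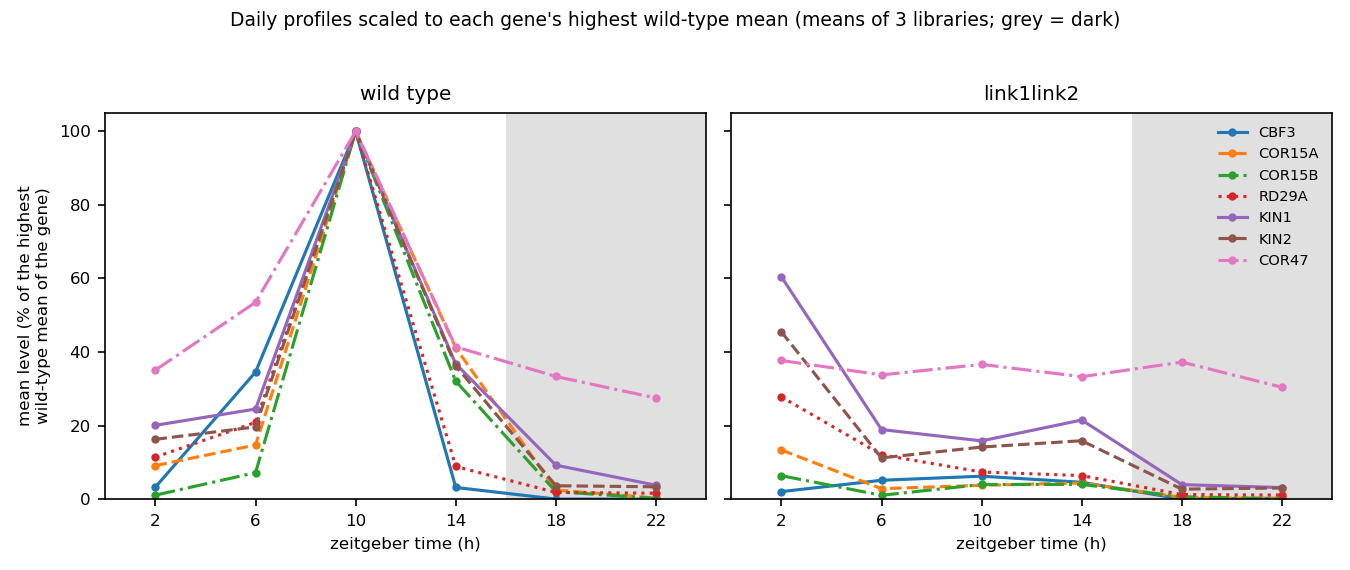
Mean level of CBF3 and 6 COR genes at each harvest, as percent of the gene's highest wild-type mean, in wild type (left) and link1link2 (right); each point is a mean of 3 libraries and grey marks the dark. All 7 wild-type curves reach 100% at ZT10, and in the mutant the 6 COR curves are highest at ZT2, that of COR47 by 1.03-fold over ZT10.

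In continuous light, which gives no daily signal, only the COR15 pair was called. No harvest time is given for these plants in the sources used here. A difference in level and a shift in timing therefore cannot be told apart, and genes with overlapping libraries may differ at other hours. Of the 7 genes that passed the filter, 2 were lower in the mutant against 2.98% of all loci, and none was higher, by DESeq2 or at an unadjusted p under 0.05 either, against 2.18%. COR15A read 29.4, 22.9 and 31.8 CPM in the wild type and 7.26, 7.18 and 8.90 in the mutant (-1.85 ± 0.13, adjusted p = 4.21e-07, edgeR). COR15B read 19.96, 13 and 17.3 against 7.66, 8.18 and 6.51 (-1.15 ± 0.15, adjusted p = 0.000232, edgeR). In both genes all wild-type libraries lay above all mutant libraries, as in 11.6% of all loci, and in no other gene of the set.

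The other targets overlapped between genotypes in continuous light. RD29A was at 34.5 ± 1.6 and 36.3 ± 2.57 CPM, KIN1 at 24.5 ± 3.25 and 24.9 ± 3.63, KIN2 at 47.7 ± 2.31 and 50.1 ± 0.800 and COR47 at 189 ± 11.5 and 211 ± 25.6, wild type first. The log2 fold changes of these 4 lay between 0.04 ± 0.12 (KIN1) and 0.15 ± 0.08 (COR47). GOLS3, from 19 counts in the wild type and 31 in the mutant, also overlapped (0.56 ± 0.44, adjusted p = 0.605, edgeR). The 3 CBF genes did not pass the filter: 28 counts of the family were found in the wild type and 28 in the mutant, 0.754 ± 0.212 and 0.658 ± 0.562 CPM, and the sum did not differ detectably at this depth (-0.14 ± 0.51 on the log2 scale). Wild-type COR15A in continuous light was at 0.157-fold of its long-day mean and KIN1 at 0.758-fold. The 2 experiments were deposited as separate count tables and scaled separately, and the difference between them was not tested.

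**Figure D5:**
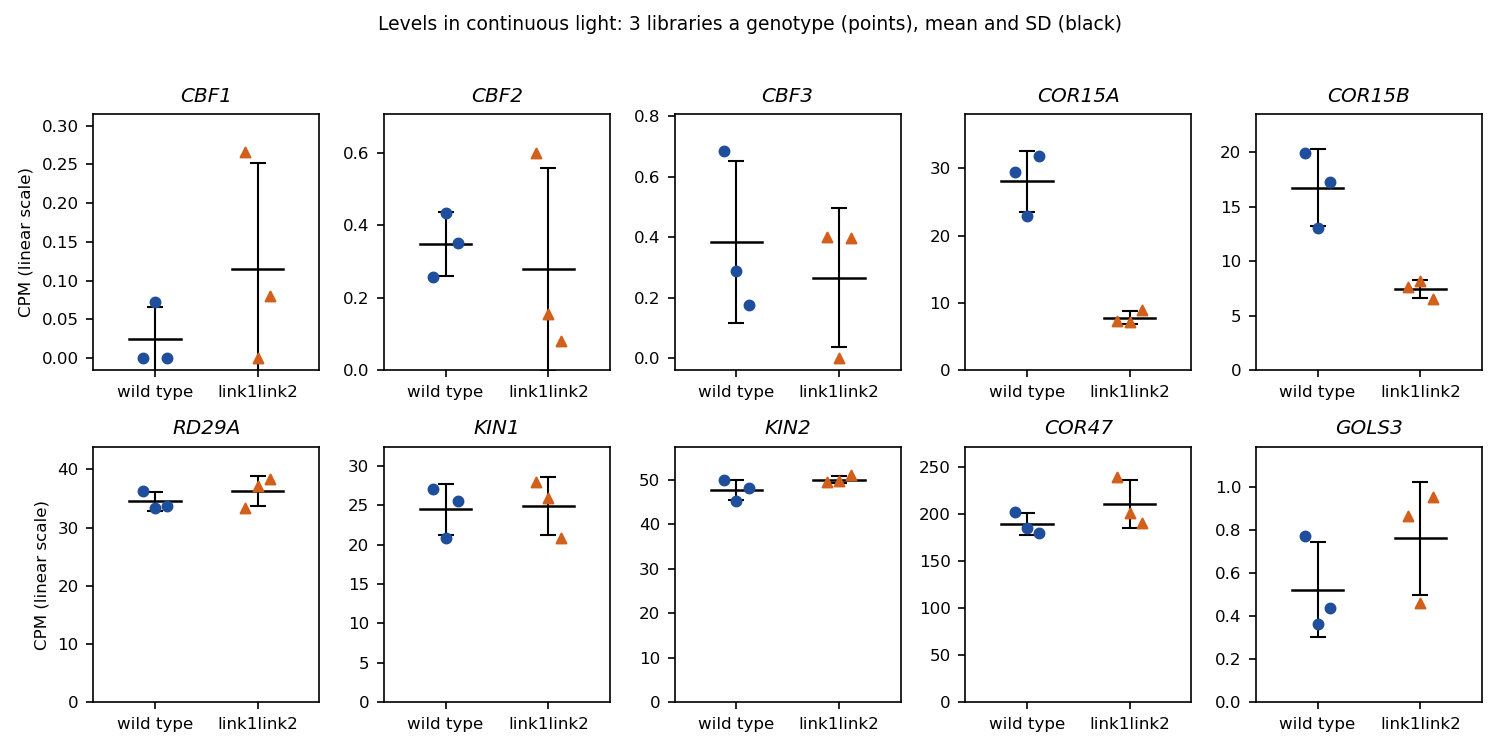
CPM on a linear scale in continuous light for each gene, with 3 libraries a genotype (circles wild type, triangles link1link2) and mean and SD in black. COR15A and COR15B separate fully, and the other panels overlap.

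Known regulators of the CBF genes were read alongside. Of 20 genes listed for control of CBF by signalling, light or flowering, 3 were higher and 4 lower in the mutant at ZT10, with a median log2 fold change of -0.01, against 11.4% of all loci higher and 10.7% lower. On this list BZR1, CAMTA3, MPK3, MPK6 and PIF7 overlap opposite-strand loci by 45 to 629 bases. MYB15, a repressor of CBF genes, was higher at ZT10, 1.76 ± 0.234 against 0.175 ± 0.152 CPM (3.22 ± 0.67, adjusted p = 0.000252, edgeR), and SOC1, a flowering factor that represses CBF genes, was lower (-1.47 ± 0.20, adjusted p = 6.79e-07, edgeR). At ZT6, 9 of the 20 were lower and none was higher, against 9.98% and 10.1% of all loci, with SOC1 at -1.26 ± 0.17 and ICE2, an activator related to ICE1, at -0.65 ± 0.08. At ZT2, 1 was higher and 5 lower (all loci 8.53% and 7.58%), and at ZT14 3 higher and 3 lower (7.72% and 6.98%). ZT18 had 6 higher and 2 lower (10.6% and 9.59%), ZT22 had 8 higher and 3 lower (16.6% and 14.1%), and continuous light 1 higher and 2 lower (2.18% and 2.98%). These shares of all loci hold for the lists that follow as well.

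The clock genes that bind or gate CBF promoters moved in both directions, and 12 of 12 were called at ZT10, 5 higher and 7 lower, against 11.4% and 10.7% of all loci. LUX, on this list, overlaps an opposite-strand locus by 1507 bases, so its calls are uncertain without strand. CCA1 and LHY, which activate CBF genes, were at 12.3 ± 0.457 and 8.63 ± 0.603 CPM in the mutant at ZT10 against 2.1 ± 0.562 and 1.98 ± 0.844 (2.53 ± 0.19 and 2.04 ± 0.20, adjusted p = 5.76e-14 and 5.24e-11, edgeR). Near dawn they were low instead: at ZT22 LHY was at 75.4 ± 1.78 against 626.5 ± 36.1 CPM and CCA1 at 22.2 ± 1.84 against 177.9 ± 14.6. PRR5, a repressor of CBF genes, was at 14.9 ± 2.48 against 107.4 ± 6.71 CPM at ZT10 (-2.86 ± 0.10, adjusted p = 9.06e-26, edgeR), and its relative PRR7 was at 80.9 ± 4.02 against 6.89 ± 0.571 at ZT14. COR27, a cold- and clock-regulated gene, had the largest drop of the list at ZT10, -8.47 ± 0.22 (adjusted p = 6.45e-30, edgeR). Counts of higher and lower genes were 0 and 5 at ZT2, 2 and 9 at ZT6, 7 and 3 at ZT14, 5 and 5 at ZT18, 5 and 4 at ZT22, and 3 and 7 in continuous light.

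Of 11 transcription factors listed as induced by cold in parallel with CBF, 8 were tested, and 3 were lower at ZT10, RAV1 (-0.92 ± 0.14), MYB73 (-0.71 ± 0.09) and HSFC1 (-0.37 ± 0.11), the last uncertain because 1808 bases of it overlap an opposite-strand locus. At ZT6, 2 were lower, and at ZT2 and in continuous light none was called. Of 20 other genes listed for the CBF regulon, at ZT10, 9 were lower and 3 higher, with a median log2 fold change of -0.19, against 10.7% and 11.4% of all loci. The largest changes were in LEA14 (-1.39 ± 0.10), LTI30, a dehydrin (-1.29 ± 0.14), P5CS1 of proline synthesis (1.29 ± 0.16) and ERD7 (-1.14 ± 0.08). At ZT2, 6 were higher and 4 lower, led by COR413IM1 at 1.94 ± 0.17 (adjusted p = 5.18e-11, edgeR), which was also higher in continuous light (0.81 ± 0.09), where 4 were higher and 1 lower.

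Of 13 genes that respond to abscisic acid and drought, 5 were higher and 2 lower at ZT10, with a median of 0.29, against 11.4% and 10.7% of all loci, among them RD20 (2.31 ± 0.58), HAI1, a phosphatase (1.41 ± 0.44), and ABF3, a factor that binds the ACGTG core (1.25 ± 0.12), while ADH1 was lower (-1.41 ± 0.26). At ZT6, 5 were higher and none lower, with RD20 at 1.95 ± 0.37, and at ZT2, 4 were higher, led by RD22 at 0.74 ± 0.09. Counts of higher and lower genes of this list were 2 and 0 at ZT14, 1 and 2 at ZT18, 0 and 1 at ZT22, and 1 and 0 in continuous light. MYB73, P5CS1, ABF3 and ADH1 share 24 to 91 bases with opposite-strand loci, whose reads cannot be told apart from theirs without strand. Of the markers for tissue makeup, 1 of 7 tested root genes was called at ZT10, SCR at 0.34 ± 0.08. At ZT6 and in continuous light 1 root gene was higher and none lower. None was higher at the other times, where 1 was lower at ZT2, 2 at ZT14, 1 at ZT18 and 4 at ZT22. Neither of the 2 seed markers tested, of 6 listed, was called at any time, and the part of tissue makeup in the results was not tested.

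Pearson's r of the mean log2 CPM over the 12 long-day groups was used to find the genes whose pattern was most like each member, among 20518. RD29A was closest to AT5G17460 (r = 0.978) and to ERD10, a dehydrin that neighbours COR47 (r = 0.966). CBF3 was closest to AT3G55760 (r = 0.960), COR15A to UGE2 (r = 0.955), COR15B to DHS1 (r = 0.951) and GOLS3 to AT4G09760 (r = 0.950). KIN1 and KIN2 had the same best match, AT5G25510 (r = 0.947 and 0.957), and so did CBF1 and COR47, TPS03 (r = 0.926 and 0.929), while CBF2 was closest to ALB3 (r = 0.939). The 12 points are group means of shared libraries, and the values are a description.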

How the data were processed

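Transcripts of seedlings were sequenced in 42 libraries, 3 in each of 14 groups. The authors deposited raw read counts per locus, 1 table an experiment, with no normalization; the build was TAIR 10, per the submitters' processing notes, and the aligner, counting tool and strand setting are not given in the sources used here. Per the labels' protocols the TruSeq RNA procedure was used after poly(A) selection. Mutant columns carry a name that occurs in no label and were mapped to the mutant as the only other genotype. No label ties replicates to separate cultures, and the spread that the p-values rest on may therefore be technical.

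Counts were tested with edgeR 4.0.16 (filterByExpr, TMM, robust quasi-likelihood fit; R 4.3.3), 1 model an experiment, 12 groups in long days, with Benjamini-Hochberg adjustment over all loci tested. Replicate libraries differed beyond sampling noise in all 42 pairs (chi-square per degree of freedom 1.95 to 23.9). The scripts were tested on simulated data. CPM was scaled to each library's total over the loci tested, times its TMM factor. Alternatives were DESeq2 1.42.0, RLE size factors, no filter, each time alone, copies summed, a block by column letter, each library left out and, chosen after seeing the data, removal of the 4 libraries over 2% plastid counts. The columns' letters were not tied to the labels' replicate numbers and did not pair the libraries. Sequences, gene positions and the exon lengths behind per-kilobase values are from RefSeq TAIR10.1. The gene models that the submitters counted may differ in length, so orders per kilobase are approximate. Counting intervals are 95%, cover counting error only, and come from exact binomial bounds.

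All 10 members are reported at every time and in continuous light; of each other list (regulators of CBF, clock genes, first-wave cold factors, other regulon genes, genes responding to abscisic acid and drought, root and seed markers) at most 4 called genes with the largest changes are, and selected clock genes at any time. Members and lists were chosen with earlier results of these data known.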

Additional observations from a re-analysis of the deposited data

Results flagged for a closer look

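The genotype difference was tested for a change over the 6 long-day harvests by edgeR's quasi-likelihood test, and it changed with the time of day in 10 of 10 genes, where 41.9% of all loci tested did. Among the CBF genes the adjusted p was 0.00136 for CBF1, 0.0267 for CBF2 and 0.000405 for CBF3. Among the targets it was 4.12e-09 for COR15A, 8.41e-13 for COR15B, 2.68e-12 for RD29A, 1.21e-06 for KIN1, 7.65e-15 for KIN2, 4.52e-14 for COR47 and 0.00894 for GOLS3. For COR15B, RD29A, KIN1 and KIN2 the direction itself turned, higher in the mutant at ZT2 and lower at ZT10, in every library of each genotype. For CBF3 and COR47 no harvest had the mutant called higher. CBF1 and GOLS3 had no count in a group at some harvests and passed the filter only through wild-type libraries. Without them the difference changed with the time of day in 8 of 8 genes. CBF3 is among those 8, and it had passed the filter through 6 wild-type libraries and 1 mutant library.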

How the results depend on the processing

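No called result changed direction under any alternative run. Changes in sign were seen for uncalled values only. Among them was CBF1 at ZT2, with a log2 fold change of 1.85 singly and -0.91 with the CBF genes summed. Of the counts of genes called, the number higher in continuous light was 1 with a replicate block by column letter and 0 without it; the letters do not pair the libraries (correlations of deviations -0.320 to 0.117 in long days, 0.0508 to 0.133 in continuous light). With each time fitted alone, 2 genes were higher at ZT2 in place of 4, and 1 was lower at ZT22 in place of 0. DESeq2 called 4 lower at ZT18 in place of 2 and 1 at ZT22; removal of the 4 libraries with over 2% plastid counts also gave 4 at ZT18. Leaving out 1 library at a time gave 8 to 9 genes lower at ZT6, 3 to 6 at ZT14, 2 to 3 at ZT18 and 0 to 1 at ZT22 (1 without mutant ZT2 library C), 9 to 10 with a time-dependent difference, 8 to 10 with time of day in the mutant and 8 to 9 with a differing cosine, and moved no other count. The CBF2 time dependence was lost in 6 of these (adjusted p up to 0.0835, edgeR), and the KIN1 cosine without mutant ZT2 library C (0.0626). Over all loci, the count called in continuous light went from 1039 to 657 without wild-type library B and to 1888 with the block, at ZT22 from 6285 to 3695 and for the cosine from 3148 to 1647 without the 4 libraries, and with each time alone from 3306 to 2028 at ZT2 and from 3016 to 1704 at ZT14. The cause was not tested. Depth limits the CBF genes and GOLS3, which were at or near 0 counts at several harvests.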

Other observations

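The level of COR15A relative to its neighbour COR15B, per kilobase of exon within each library, was looked at after the levels had been seen. In the wild type it was 9.53 ± 1.62 at ZT2, 2.25 ± 0.240 at ZT6, 1.08 ± 0.116 at ZT10 and 1.4 ± 0.0314 at ZT14 (SD, n = 3). In the mutant it was 2.20 ± 0.460 at ZT2, 3.08 ± 0.804 at ZT6, 1.04 ± 0.163 at ZT10 and 1.19 ± 0.179 at ZT14. In continuous light it was 1.69 ± 0.193 in the wild type and 1.06 ± 0.264 in the mutant. The libraries of the genotypes did not overlap at ZT2, ZT14, ZT18 or in continuous light. Each of these 4 comparisons had an exact 2-sided permutation p of 0.1, the smallest that 3 against 3 libraries allow. The adjusted p was 0.2 over 14 ratio comparisons. With so few libraries no ratio could have passed this permutation test, so it decides nothing here. The ratio of KIN2 to KIN1 at ZT10 was 5.87 ± 1.70 in the wild type and 5.02 ± 0.468 in the mutant, and the libraries overlapped there, at ZT2, at ZT22 and in continuous light. They did not overlap at ZT6 (4.53 ± 0.551 and 3.34 ± 0.314), ZT14 (5.53 ± 0.156 and 4.26 ± 0.820) or ZT18 (2.21 ± 0.114 and 3.93 ± 1.03), with the same p and adjusted p as above.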
